A study of Homo sapiens with 16 samples.

Results

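Among the genes named for brain metastases of the MDA231 breast cancer line, 97 belonged to fatty acid and lipid metabolism. They were chosen by the name of the process they stood in: every gene of an enriched Gene Ontology process whose name held "fatty acid", "lipid", "sphingo", "ceramide", "cholesterol", "acyl-CoA" or "phosphatidyl" was taken. The rule found 11 processes, called terms here, among the 314 in the MDA231 table, and their 97 genes were 3.67% of the 2646 genes that the table named. A term is in that table because of its enrichment p-value, of which the largest was 0.0973, so the enrichment of these terms chose the members and is given as a description.

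The study profiled metastases by Flura-seq, in which cells able to convert 5-fluorocytosine incorporate a labelled base into new RNA that an antibody then recovers. The groups were MDA231 IP, MDA231 input, HCC1954 IP and HCC1954 input, with 4 libraries each, where IP is RNA recovered with an anti-BrdU antibody and input is RNA before that step. MDA231 is a human triple-negative breast cancer line and HCC1954 a human ERBB2-positive one, and both were brain-metastatic derivatives grown for 30 days in the brains of xenografted mice. All mice were given 5-fluorocytosine at 250 mg/kg, 12 hours before their brains were collected, and 2.5 µg of antibody was used per brain. The labels used here do not give the strain, age or number of the mice, or the construct that converts 5-fluorocytosine, and each tumour type is represented by 1 line. The files analysed hold no expression value and no count per library, so depth, replicate spread and the labelled cell type could not be checked. They also do not say whether a listed gene was higher or lower in IP than in input RNA. "Listed" below therefore carries no direction, and a gene listed but found in no enriched term is not seen.

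Fatty acids are burned by repeated removal of an acetyl unit, a cycle called beta-oxidation, which runs in mitochondria for most chains and in peroxisomes for very long or branched ones. Cholesterol, ceramide and most phospholipids are made on the endoplasmic reticulum (ER), and sphingomyelin is finished in the Golgi. Brain tissue is rich in cholesterol, sphingolipids and long unsaturated fatty acids, and tumours that grow there meet a lipid supply unlike that of most organs.

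The 11 terms spanned oxidation and synthesis alike. By p-value and by number of genes, fatty acid beta-oxidation led them, with 22 of its 44 background genes listed, or 50% (95% exact binomial interval 34.6 to 65.4), where 21.6% of all 16792 background genes were listed. Its fold enrichment was 2.32 in the authors' deposited table (p = 0.000106, adjusted p = 0.0448), rank 15 of the 314 terms by p. It was the 1 lipid term of 11 with an adjusted p under 0.05, a share to be read beside the 4.78% of all 314 terms that passed the same threshold in the authors' deposited table. At an unadjusted p under 0.05 there were 7 of 11 lipid terms, beside 68.2% of all terms, in the authors' deposited table. The rule used these p-values, so nothing is read from either count. The median fold was 1.95 for the 11 lipid terms and 1.93 for the 303 other terms in the authors' deposited table, so their size of enrichment was ordinary for the table.

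Sphingomyelin synthesis was the lipid term listed in full, at 5 of 5 genes and a 4.63-fold enrichment, which is the ceiling for this list, in the authors' deposited table (p = 0.00897, adjusted p = 0.572). Of all 314 terms, 10 had every background gene listed. Sphingosine synthesis had 6 of 8 genes listed (3.47-fold, p = 0.0145 in the authors' deposited table) and fatty acid alpha-oxidation 5 of 7 (3.31-fold, p = 0.0432 in the authors' deposited table). Cholesterol synthesis had 16 of 38 genes listed, or 42.1% (exact interval 26.3 to 59.2; 1.95-fold, p = 0.00942, adjusted p = 0.569 in the authors' deposited table). Small terms had wide intervals, and sphingomyelin synthesis ran from 47.8 to 100% of its genes.

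Phospholipid synthesis held 15 of 40 genes (1.74-fold, p = 0.0357 in the authors' deposited table) and sphingolipid synthesis 17 of 48 (1.64-fold, p = 0.0403 in the authors' deposited table). Lipid storage held 10 of 24 genes (1.93-fold, p = 0.0559 in the authors' deposited table). Ceramide synthesis and phosphatidylcholine synthesis held 10 of 25 genes each, at 1.85-fold and p = 0.0711 in the authors' deposited table. Fatty acid transport, with 6 of 12 genes, lay closest to the edge of the table at p = 0.0955 and 2.32-fold in the authors' deposited table. Terms beyond that edge were not analysed here. In 3 of the 11 terms, the exact interval of the listed share reached below the 21.6% of the whole background: ceramide synthesis, phosphatidylcholine synthesis and fatty acid transport. By the exact interval of the fold, phospholipid synthesis, sphingolipid synthesis and lipid storage also reached below no enrichment (lower ends 0.973, 0.956 and 0.926).

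**Figure D1:**
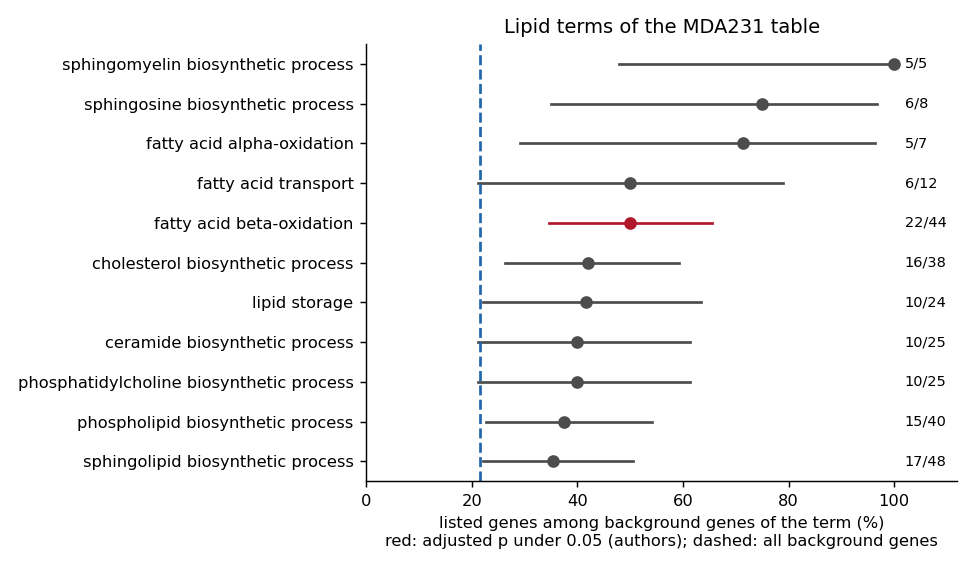
Percent of each lipid term's background genes that were in the MDA231 list (points) with exact 95% binomial intervals (lines), and listed over background genes at the right; the dashed line is the 21.6% of all background genes. Fatty acid beta-oxidation, in red, is the term with an adjusted p under 0.05, and sphingomyelin synthesis stands at 100%.

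Entry of fatty acids into oxidation was represented by both ends of the carnitine shuttle. CPT1A (ENSG00000110090; GRCh38 chr11:68754620-68844410, minus strand) makes acylcarnitine at the outer mitochondrial membrane and is the point of control of the pathway, and CPT2 turns it back into acyl-CoA inside. CPT1A and CPT2 were named, and the other carnitine palmitoyltransferases CPT1B and CPT1C and the carrier SLC25A20 were not, so 2 of these 5 genes stood in the table. Of the enzymes that activate fatty acids by joining them to coenzyme A, 2 were members: ACSL1, a long-chain acyl-CoA synthetase, and SLC27A2, which acts on very long chains in peroxisomes and the ER. GOT2, mitochondrial aspartate aminotransferase, has also been described as a fatty acid-binding protein of the plasma membrane and was named under fatty acid transport.

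For mitochondrial beta-oxidation, genes were named at each step of the cycle looked up, and none for the hand-over of electrons. A gene in no enriched term may still be listed, so names alone cannot show a gap in the pathway. The dehydrogenation step had ACADVL, for very long chains, and ACADM, for medium chains, of 5 acyl-CoA dehydrogenases looked up; ACADL, ACADS and ACAD9 were not named. The next steps had HADHA and HADHB, the alpha and beta subunits of the trifunctional protein, and ECHS1, the short-chain enoyl-CoA hydratase, of 5 genes; HADH and ACAA2 were not named. ECI1, an isomerase needed for unsaturated chains, was named and DECR1 was not. None of the electron-transfer genes ETFA, ETFB and ETFDH was named. ACAT1, AUH and HIBCH also stood in this term, and these enzymes serve the breakdown of isoleucine and ketone bodies, leucine and valine. The same 3 genes were in branched-chain amino acid catabolic process, of which 11 of 19 genes were listed (2.68-fold, p = 0.00288, adjusted p = 0.381 in the authors' deposited table). Without these genes, the fold of beta-oxidation computed here was 2.15. ECHDC2, a mitochondrial protein with an enoyl-CoA hydratase domain, completed the mitochondrial members of the term.

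HADHA (chr2:26190635-26244726, minus strand) and HADHB (chr2:26243170-26290468, plus strand) lie on opposite strands of GRCh38, and their GENCODE spans overlap at the 5′ ends. Both subunits of the complex were listed. Their RefSeq promoter windows, which run from 250 bases before to 50 after a gene's RefSeq start, share 194 bases. For HADHB the RefSeq start is not the GENCODE start given above. The 2 genes were the 1 pair of members that shared a window. The HADHB window is shown 5′ to 3′ because it overlaps the upstream bases of the other subunit; capitals mark the bases that it shares with the HADHA window on the opposite strand.
HADHB (chr2:26244689-26244988, plus strand): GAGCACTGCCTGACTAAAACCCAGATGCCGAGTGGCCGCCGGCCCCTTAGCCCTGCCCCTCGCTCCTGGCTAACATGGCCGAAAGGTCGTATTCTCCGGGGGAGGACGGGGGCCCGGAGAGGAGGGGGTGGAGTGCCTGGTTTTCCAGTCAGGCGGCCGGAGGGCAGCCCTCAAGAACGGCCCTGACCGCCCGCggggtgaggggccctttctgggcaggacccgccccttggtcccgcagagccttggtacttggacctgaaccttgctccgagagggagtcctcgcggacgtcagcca

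Such overlap was at similar shares in members and in other genes. Of 83 members with a RefSeq window, 11 (13.3%) overlapped the window of a coding gene on the opposite strand, against 337 of 2112 other named genes (16.0%) and 1785 of 15843 coding genes (11.3%). Besides HADHA and HADHB, the partners named in the MDA231 table were POLK, a DNA polymerase beside CERT1, and PUS10, a pseudouridine synthase beside PEX13. The partners of ACADVL, ARV1, BSCL2, CEPT1, HACL1, NSDHL and SPHK2 were not named there.

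Peroxisomes supplied 9 of the 22 beta-oxidation genes and all 5 genes of alpha-oxidation. ACAA1 is the closing thiolase of peroxisomal beta-oxidation. PHYH and HACL1 are the hydroxylase and lyase that shorten branched phytanic acid by alpha-oxidation, and both of these enzymes were named. CROT passes medium-chain products on as carnitine esters, and ECH1 is a dienoyl-CoA isomerase found in peroxisomes and mitochondria. Neither EHHADH nor HSD17B4, the enzymes of the middle steps, was named, nor were the membrane transporters ABCD2 and ABCD3. SCP2, a second thiolase, was named through other terms.

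Several oxidation members were machinery for building peroxisomes. PEX5 and PEX7 are the receptors that bring enzymes into the organelle, and PEX2 and PEX13 are membrane proteins of the import complex; all 4 were members. PEX2, PEX5 and PEX7 were also in protein import into peroxisome matrix, of which 7 of 10 genes were listed (3.24-fold, p = 0.00942, adjusted p = 0.574 in the authors' deposited table). Peroxisome organization had 10 of 18 listed (2.57-fold, p = 0.00722, adjusted p = 0.531 in the authors' deposited table). Those 2 terms named 12 genes, of which 3 (25.0%) were members, and those 3 were 3.09% of the members. Leaving PEX2, PEX5 and PEX7 out gave a beta-oxidation fold of 2.15. SLC25A17 (chr22:40769630-40819399, minus strand), the peroxisomal carrier of coenzyme A and related cofactors, and SLC27A2 (chr15:50182196-50236395, plus strand) were each in 3 lipid terms: beta-oxidation, alpha-oxidation and transport. SESN2, a stress-induced regulator of growth signalling in the cytosol, was the 1 beta-oxidation gene placed at neither organelle.

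Cholesterol synthesis had members along its whole length. Of 21 enzymes looked up, 11 were members, and 12 were named in any term once SC5D, found under oxidation-reduction, was counted. Between acetyl-CoA and lanosterol, the members included the mevalonate enzymes PMVK and MVD, FDPS, which makes farnesyl diphosphate, SQLE, squalene epoxidase, and LSS, which closes the sterol rings. ACAT2, HMGCS1, MVK, IDI1 and FDFT1 from the same stretch were not named. After lanosterol, the members were TM7SF2, MSMO1, NSDHL, EBP and DHCR7, which reduce, demethylate and isomerize the sterol nucleus, and CYP51A1, LBR and HSD17B7 were among those not named.

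The other members of the cholesterol term stood around the pathway. INSIG2 holds the sterol sensor SCAP in the ER, and CYB5R3 supplies electrons to ER oxidases and desaturases. GGPS1 draws farnesyl diphosphate off to protein prenylation, ARV1 is an ER protein of sterol handling, and CES1 is an ER carboxylesterase. The regulators SREBF2, SCAP and MBTPS2, which switch the pathway on when sterols are low, were named in terms of other subjects, and SREBF1 and INSIG1 were not named. Of the 16 genes of the term, 12 were assigned to the ER and 4 (FDPS, GGPS1, MVD and PMVK) to the cytosol.

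Promoter windows of the cholesterol genes often held the CCAAT box, the letters CCAAT read on either strand. The box was in 11 of the 13 that had a RefSeq window, or 84.6% (exact interval 54.6 to 98.1), against 43.8% of 2112 other named genes and 42.1% of 15843 coding genes. At least 2 copies were in 6 of 13 (46.2%), namely DHCR7, EBP, FDPS, MSMO1, MVD and NSDHL, against 17.0% of other named genes and 14.8% of coding genes. The windows of ARV1 and NSDHL share 268 and 195 bases with opposite-strand windows of TTC13 and CETN2, so boxes there may not be particular to the cholesterol gene. The motifs and the grouping were chosen after the lists were known, no test was made, and a match is not a binding site. Windows of 5 enzymes in pathway order follow, 5′ to 3′ on GRCh38.p14, to show the repeated boxes. Capitals mark CCAAT or its reverse complement ATTGG.
MVD (chr16:88663042-88663341, minus strand): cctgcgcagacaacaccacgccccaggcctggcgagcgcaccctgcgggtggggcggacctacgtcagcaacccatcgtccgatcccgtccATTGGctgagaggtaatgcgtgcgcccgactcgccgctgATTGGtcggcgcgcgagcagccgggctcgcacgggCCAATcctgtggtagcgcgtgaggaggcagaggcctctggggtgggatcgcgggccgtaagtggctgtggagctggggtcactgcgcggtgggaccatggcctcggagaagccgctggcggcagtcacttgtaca
FDPS (chr1:155308616-155308915, plus strand): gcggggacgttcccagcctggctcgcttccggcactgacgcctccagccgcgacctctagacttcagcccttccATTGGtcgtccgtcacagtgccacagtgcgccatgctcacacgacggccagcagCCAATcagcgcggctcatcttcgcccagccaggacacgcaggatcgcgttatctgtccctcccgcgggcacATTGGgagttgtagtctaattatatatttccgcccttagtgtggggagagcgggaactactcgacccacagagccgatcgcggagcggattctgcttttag
MSMO1 (chr4:165327419-165327718, plus strand): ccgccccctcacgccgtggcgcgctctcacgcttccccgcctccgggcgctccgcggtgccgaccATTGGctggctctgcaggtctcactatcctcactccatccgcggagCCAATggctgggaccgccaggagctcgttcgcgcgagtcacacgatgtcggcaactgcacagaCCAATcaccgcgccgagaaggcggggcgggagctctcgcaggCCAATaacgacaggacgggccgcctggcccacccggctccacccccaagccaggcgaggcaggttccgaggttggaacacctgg
NSDHL (chrX:152830813-152831112, plus strand): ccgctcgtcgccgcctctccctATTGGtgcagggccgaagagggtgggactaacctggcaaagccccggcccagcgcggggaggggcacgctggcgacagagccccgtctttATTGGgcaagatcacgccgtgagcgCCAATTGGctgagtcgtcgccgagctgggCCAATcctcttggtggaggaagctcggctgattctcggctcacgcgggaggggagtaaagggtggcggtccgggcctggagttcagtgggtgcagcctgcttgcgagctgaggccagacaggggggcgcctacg
EBP (chrX:48521558-48521857, plus strand): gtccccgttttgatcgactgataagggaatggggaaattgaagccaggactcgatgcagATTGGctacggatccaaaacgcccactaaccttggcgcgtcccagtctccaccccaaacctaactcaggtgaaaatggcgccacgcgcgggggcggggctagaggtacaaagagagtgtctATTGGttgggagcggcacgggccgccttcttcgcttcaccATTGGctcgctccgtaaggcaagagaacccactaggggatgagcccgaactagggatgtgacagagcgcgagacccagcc

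The capitals begin 159, 120 and 85 bases before the start in MVD, and 176, 122 and 51 bases before it in FDPS. MSMO1 had 4 boxes, at 185, 139, 76 and 34 bases, and NSDHL 5, at 228, 138, 113, 110 and 84 bases, of which those at 113 and 110 overlap. EBP had boxes at 191, 70 and 30 bases before the start. The core of the sterol response element, TCACNCCAC on either strand, was in 0 of the 13 cholesterol windows (exact interval up to 24.7%), 3 of 83 member windows (ACSL1, ECHDC2 and PNPLA2; 3.61%) and 1.51% of coding genes. No match says only that these letters are not in this window.

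Other motifs were tallied over all 83 members with a window. The GC box, GGGCGG on either strand, was in 89.2% (exact interval 80.4 to 94.9) of members, 78.1% of other named genes and 64.3% of coding genes. An E-box, CACGTG, was in 4 members (ACHE, CYB5R3, LSS and PLIN2), or 4.82% (exact interval 1.33 to 11.9), against 13.7% of other named genes and 10.9% of coding genes. TATAAA was in 9.64% of members, 8.14% of other named genes and 12.4% of coding genes.

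**Figure D2:**
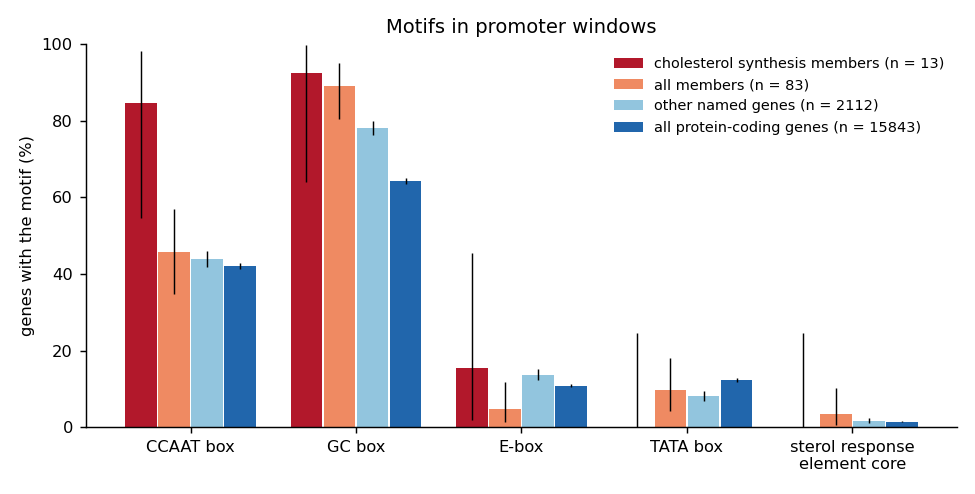
Percent of genes with each motif in a RefSeq promoter window, for cholesterol members, all members, other genes named in the MDA231 table and all coding genes; bars are shares and black lines exact 95% binomial intervals. The CCAAT box is in 84.6% of cholesterol members, 45.8% of all members and 42.1% of coding genes.

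Genes of sphingolipid synthesis were named at its opening step, among the ceramide synthases and at its closing steps. SPTLC1 (chr9:92000087-92115384, minus strand) and SPTLC2 (chr14:77505997-77616773, minus strand) form the core of serine palmitoyltransferase, which joins serine to a fatty acid in the committed step, and SPTSSB is a small subunit that alters its choice of chain. These were 3 of the 5 subunit genes looked up. SPTLC1 and SPTLC2 were in 4 lipid terms each, more than any other member. The reductase KDSR, which acts next, was not named, nor were the desaturases DEGS1 and DEGS2. Of 6 ceramide synthases, CERS4 and CERS6 were named, and CERS1, CERS2, CERS3 and CERS5 were not.

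Ceramide can go on to sphingomyelin or be broken down to sphingosine. All 3 genes of the sphingomyelin synthase family were members: SGMS1 and SGMS2, each in 3 lipid terms, and SAMD8, which makes the related ceramide phosphoethanolamine in the ER. CERT1 carries ceramide from the ER to the Golgi, and PPM1L is a phosphatase reported to act on it. Both sphingosine kinases, SPHK1 and SPHK2, which make the signalling lipid sphingosine-1-phosphate, were members, whereas SGPL1, SGPP1 and SGPP2, which remove it, were not named. ACER3 was the 1 ceramidase of 5 named and SMPD4 the 1 sphingomyelinase of 4. FA2H hydroxylates the fatty acids of myelin lipids, HACD3 belongs to the fatty acid elongation machinery, and PLPP1 and PLPP2 are lipid phosphate phosphatases. AGK, a mitochondrial acylglycerol kinase, and ALDH3B2, an aldehyde dehydrogenase, were also among the 21 members placed with sphingolipids.

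Phosphatidylcholine synthesis was represented from choline uptake to the last transfer. Of the 5 choline transporter-like genes, SLC44A1, SLC44A2, SLC44A3 and SLC44A5 were members and SLC44A4 was not named. CHKA phosphorylates choline, PCYT1A makes CDP-choline in the rate-limiting step, and CEPT1 joins it to diacylglycerol; CHKB, PCYT1B, CHPT1 and SELENOI were not named. PCYT2 is the ethanolamine counterpart of PCYT1A. ACHE, the acetylcholine esterase that frees choline, and ABHD3, a phospholipid lipase, were in the same term as LPIN1, a phosphatidic acid phosphatase.

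Other phospholipid members built or remodelled the glycerol backbone. GPAM, at the mitochondrial outer membrane, adds the opening acyl chain and AGPAT2 the next one, each the 1 named gene of its family of 4 and 5. LPCAT1, LPCAT3, MBOAT2 and MBOAT7 exchange acyl chains and were 4 of 7 lysophospholipid acyltransferases looked up. CRLS1 makes cardiolipin in mitochondria, DGKE is a diacylglycerol kinase, PLAAT3 a phospholipase and SERINC5 a serine incorporator also known as a restriction factor of retroviruses. In all, 21 members were placed with glycerophospholipids.

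The group placed with lipid storage and regulation had 13 members. It takes in the 10 genes of the lipid storage term. ABHD5, PPARA and SESN2 were added by role, and were named under phospholipid synthesis, fatty acid transport and beta-oxidation. PLIN2 (chr9:19108375-19149290, minus strand) coats lipid droplets, PNPLA2 is their main triglyceride lipase and ABHD5 its activator. DGAT2 makes triglyceride and BSCL2, or seipin, shapes droplets at the ER; DGAT1 was not named. GM2A is an activator protein of ganglioside breakdown in lysosomes, and ABHD4 is a lysophospholipase. PPARA is the nuclear receptor that switches on fatty acid oxidation, and CRY1, NRIP1 and STAT5B act on transcription. Storage and breakdown genes thus stood in the same list, and the table cannot show which way each went.

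By main site, 34 of the 97 members were ER proteins (35.1%), 16 mitochondrial (16.5%) and 12 peroxisomal (12.4%). The remainder were 9 in the cytosol, 8 at the plasma membrane, 6 in the nucleus, 3 in the Golgi, 3 in lysosomes, 3 on lipid droplets and 3 not assigned. Within beta-oxidation the division was 12 mitochondrial, 9 peroxisomal and 1 cytosolic, and no cholesterol member had its main site in mitochondria or peroxisomes. Sites are textbook assignments and not measurements, and counting each known site of a gene gave 36 ER, 20 mitochondrial and 13 peroxisomal members.

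**Figure D3:**
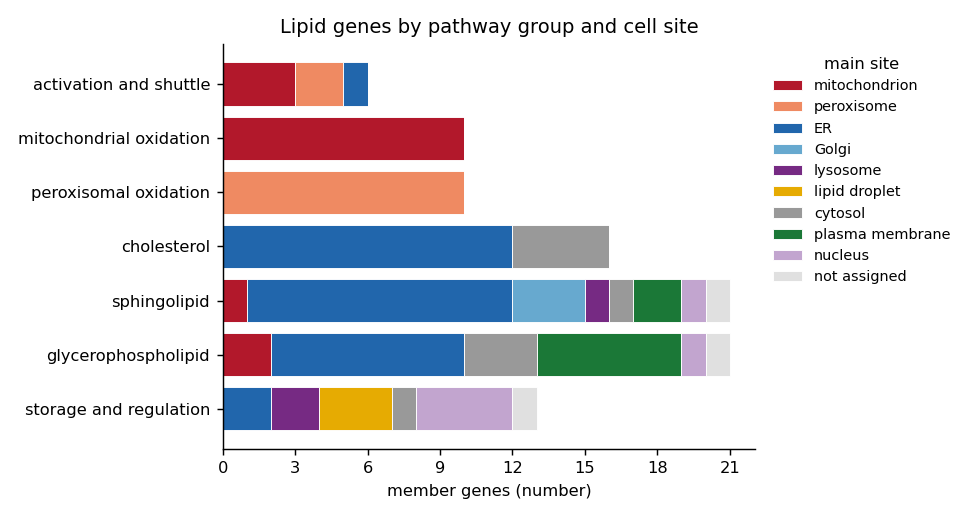
Number of member genes in each pathway group, coloured by main cell site. Mitochondrial and peroxisomal oxidation have 10 members each at a single site, cholesterol synthesis has 12 in the ER and 4 in the cytosol, and sphingolipid and glycerophospholipid members spread over several sites.

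The 11 terms fell into blocks that shared genes within them, with few links between. Of the 97 members, 80 were in 1 lipid term, 11 in 2, 4 in 3 and 2 in 4. Sphingomyelin synthesis lay wholly inside ceramide synthesis, sharing 5 genes, which were 100% of the smaller and 50% of the larger term (Jaccard index 0.50). Sphingolipid synthesis shared 6 genes with ceramide synthesis (35.3% of sphingolipid and 60% of ceramide genes) and 5 with sphingosine synthesis. The oxidation and transport terms shared SLC25A17 and SLC27A2, and beta-oxidation and transport also CROT. CEPT1 and PCYT1A linked phosphatidylcholine to phospholipid synthesis. Cholesterol synthesis shared 0 genes with the other 10 terms, and so its 16 genes are a separate set. Terms that share genes have p-values that are not independent of each other.

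**Figure D4:**
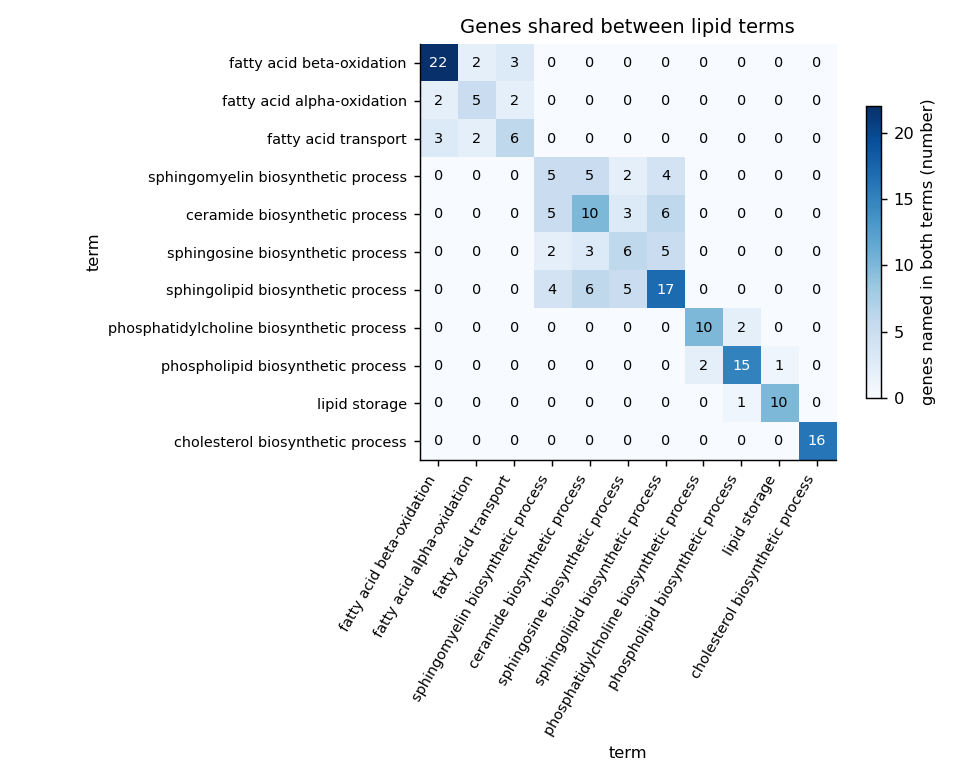
Number of genes named in both of a pair of lipid terms, with each term's own count on the diagonal. The 3 fatty acid terms form one block, the 4 sphingolipid terms another, and the 16 cholesterol genes are shared with no other lipid term.

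Members were also named by terms of other subjects. At least 1 such term named 60 of 97 members (61.9%), and 53 other terms did so. Of the 2549 other named genes, 60.1% stood in 2 or more terms. That share is not like for like, since it also counts further terms of the same subject. The broadest were metabolic process, with 11 members among its 58 genes, and oxidation-reduction process, with 10 among 166, including SQLE, MSMO1, NSDHL, TM7SF2 and DHCR7. Members stood in 2 or more terms of any kind for 68 of 97 genes (70.1%), against 60.1% of 2549 other named genes, and the median was 2 terms in both. The 70.1% also counts members whose further terms were all lipid terms. PPARA and SPHK1 were in 6 terms each. ACADVL was in a term of the unfolded protein response and CERT1 in response to endoplasmic reticulum stress. CRLS1 and CPT2 were in no term of another subject. Of the 98 genes in terms named for mitochondria, 1 was a member, so the mitochondrial oxidation genes were named apart from the mitochondrial translation and organelle genes.

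A wider set of 315 lipid genes in 10 lists was then looked up, since a term shows only its listed genes. Across the background, 15.8% of genes were named in the MDA231 table; the rule itself fixed the naming of every gene in a lipid term, and nothing is read from the shares of lists that hold such genes. Named genes were 17 of 33 for cholesterol synthesis and its control (51.5%), 11 of 25 for peroxisomal oxidation (44.0%), 3 of 8 for the carnitine shuttle (37.5%) and 19 of 51 for sphingolipids (37.3%). Mitochondrial beta-oxidation had 9 of 27 (33.3%) and glycerophospholipid and triglyceride synthesis 15 of 46 (32.6%). Fatty acid activation had 3 of 24 (12.5%). ACSS2, an acetyl-CoA synthetase, was its 1 gene named in other terms alone.

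Other lists held at most 1 member. Fatty acid synthesis, elongation and desaturation had 7 of 29 named (24.1%), of which HACD3 alone was a member. FASN, the cytosolic fatty acid synthase, and SCD, the main desaturase, were named through broad metabolic terms, as were the mitochondrial synthesis genes MCAT, OXSM and CBR4. None of the 7 elongases was named, nor ACLY or ACACA. Phosphoinositide kinases and phosphatases had 10 of 48 (20.8%) and 0 in a lipid term; PIK3C3, PIK3R4 and MTMR3 were named under macroautophagy. Regulators had 7 of 24 (29.2%), among them the AMP-activated kinase subunits PRKAB1, PRKAB2 and PRKAG1, also under macroautophagy, and the nuclear receptors PPARA, NR1H2 and ESRRA.

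**Figure D5:**
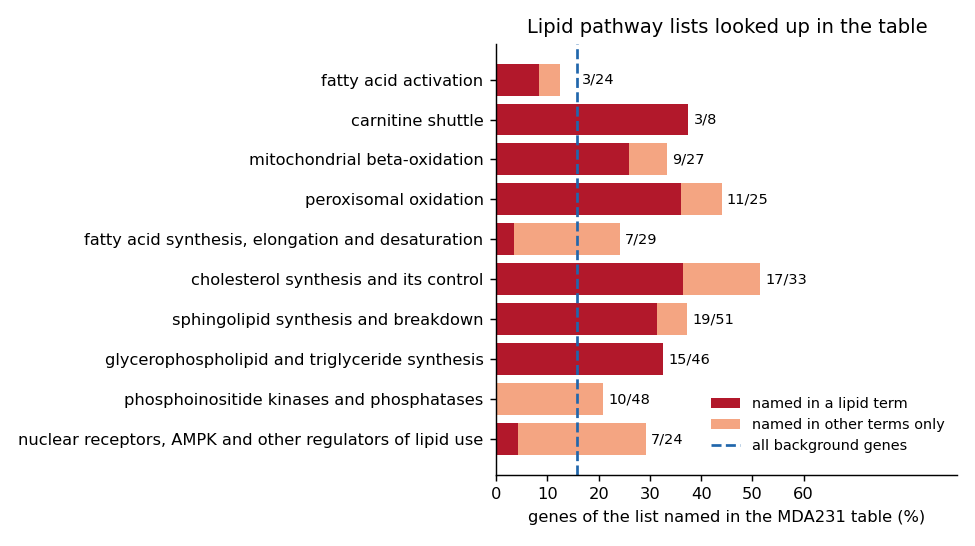
Percent of each lipid list named in the MDA231 table, split into genes in a lipid term and genes in other terms alone, with named over looked-up genes beside each bar; the dashed line is the 15.8% of all background genes. Fatty acid activation lies below the line at 12.5%, and phosphoinositide genes are named in other terms alone.

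No lipid member was named for the other line. The MDA231 table named 97, and the HCC1954 table, with 37 terms and 30 genes, named 0 of these and had 0 terms with a lipid name. The HCC1954 table named 0.179% of the background, so its short list leaves little room for any lipid gene, and no difference between the lines was tested.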

How the data were processed

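Per the labels' protocols, poly(A) RNA of mouse brains bearing human tumours was immunoprecipitated and made into cDNA libraries. The submitters' processing notes name STAR and HTSeq with GRCh38 and GRCm38, without versions. The authors deposited 1 table of Gene Ontology terms per line. Per the file headers, it gives numbers of genes, unadjusted and adjusted p-values and the fold enrichment (a ratio); its percent columns were not used. How genes were put in the list, and with which enrichment tool, is not given in the sources used here. Deposited folds followed from the gene numbers, and deposited counts equalled the printed identifiers in all 11 lipid terms.

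Computed here were the members, overlaps, shares with exact (Clopper-Pearson) 95% binomial intervals, which cover the draw of genes only, and the promoter motifs. Of 97 members, 97 had a symbol and 83 a RefSeq promoter window on GRCh38.p14, 1 or more per gene, and a motif in any window counted. Gene coordinates are from GENCODE release 29 on GRCh38. The members and lists were chosen with earlier results of these data known. Sites and groups of 66 members came from the 315-gene list and 31 were placed later, with the groups of some listed genes set again; the breakdown of pathways into steps and the motifs were also chosen later. Genes were to be named from beta-oxidation, then by number of lipid terms, per step and per term; other members were named after their values were seen, and a few genes are not reported here. The planned fit of IP against input needs values per library, and the planned look at protein ends needs protein sequences, so neither was run. The rule, intervals and motif search were tested on simulated data. Python 3.11.15, SciPy 1.17.1, NumPy 2.4.6 and pandas 2.3.3 were used.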

Additional observations from a re-analysis of the deposited data

How the results depend on the processing

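The 97 members became 85 when storage and transport terms were left out, 75 with terms at an unadjusted p under 0.05 and 94 with terms of at least 10 background genes. They fell to 22 with terms at an adjusted p under 0.05 and to 17 for genes in at least 2 lipid terms, since fewer terms or genes then qualify by construction. Lipid terms past the threshold numbered 1 at an adjusted p of 0.05, 0 at 0.01 and 7 at an unadjusted p of 0.05. Members also in a term of another subject numbered 60, or 52 with other terms of at most 200 background genes, and 3 with other terms at an adjusted p under 0.05. The beta-oxidation fold of 2.32 was 2.21 with 1 gene taken from the term and the list, and 2.15 without the amino acid or the peroxisome import genes, both of which were chosen after seeing the data. Named genes of the 84 in the activation, shuttle and oxidation lists numbered 26, or 19 in at least 2 terms and 21 in lipid terms. No paired analysis was possible because the files hold no values per library; leaving out replicates and the protein-end alternative were likewise not run. No interval here covers the spread between libraries, and the background may include genes these cells do not express, which was not tested.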
